A study of Homo sapiens with 4 samples.

Results

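Aminoacyl-tRNA synthetases are the enzymes that join each amino acid to its tRNA. Human cells hold a cytosolic set, and a mitochondrial set that is encoded in the nucleus and imported. The genes were chosen by name from the deposited table: 36 synthetase genes, of which 20 are cytosolic or shared between the compartments and 16, with names ending in 2, are mitochondrial, out of 48162 listed genes. All 20 of the former and 15 of the latter reached a mean of 1 FPKM (fragments scaled to gene length and to the library total) and were tested among 12080 genes. After MGH-CP1, 16 of the 20 cytosolic or shared genes were lower and 1 was higher, whereas 5 of the 15 mitochondrial genes were lower and 1 was higher, with limma at an adjusted p below 0.05. The background over the 12080 genes was 23.8% called lower, 27.1% called higher and 50.8% called in either direction. The share of cytosolic synthetases called lower was above that background. For the mitochondrial synthetases the share called lower was nearer to it, and the share called higher was below it. Of the 8439 genes with a mean of at least 5 FPKM, tested on their own, 2564 were called lower, a smaller share than that of the cytosolic synthetases.

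The libraries were made from MDA-MB-231 cells, a human triple-negative breast cancer line, after 24 h with vehicle control (2 libraries) or with MGH-CP1 (2 libraries), a small molecule that sits in the lipid pocket of the TEAD transcription factors and blocks their palmitoylation. The labels give the dose as 10 µM and the methods of the study as 10 mM. A single line, dose and time were measured, and the labels do not state whether replicates were separate cultures, so p-values cover the spread between these libraries, which may be technical. Gene-assigned depth was 25455533 and 25508824 fragments for vehicle control and 17997221 and 17577930 for MGH-CP1. The mesenchymal markers VIM and CD44 had between 198 and 281 FPKM in the 4 libraries, the receptor genes ESR1 and PGR and the leukocyte gene PTPRC at most 0.0321 FPKM, CDH1 at most 0.638 FPKM and COL1A1 at most 1.83 FPKM. EPCAM, an epithelial marker named among those looked for at low level, had 12.4 to 16.4 FPKM. The share of fragments on genes of the mitochondrial genome was 0.447% and 0.418% with vehicle control and 1.57% and 1.53% with MGH-CP1, with no overlap (95% Wilson intervals 0.444% to 0.450% and 0.416% to 0.421%, and 1.56% to 1.57% and 1.52% to 1.54%, counting error only). With library totals that leave those genes out, all 35 synthetase genes tested stayed on the same side of the threshold and in the same direction. CYR61, CTGF and ANKRD1, classical targets of TEAD and YAP, were lower after MGH-CP1 by 0.75, 0.66 and 0.66 on the log2 scale.

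Several cytosolic synthetases sit together in the multisynthetase complex, with EPRS, IARS, LARS, MARS, QARS, RARS, KARS and DARS held by the scaffold proteins AIMP1, AIMP2 and EEF1E1. Many synthetase genes are known targets of ATF4, a transcription factor whose translation rises in amino acid shortage and endoplasmic reticulum stress, and which binds C/EBP-ATF response elements, also called amino acid response elements. The MYC protein binds the E-box, and NRF1 is an activator of nuclear genes for mitochondrial proteins.

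The promoter windows of the members are given first, with 4 motifs searched in them. RefSeq windows (GRCh38.p14, 250 bases before to 50 after each listed transcription start) matched 30 of the 36 genes. DARS, LARS, YARS, VARS, AARS2 and VARS2 had no entry. The core of the C/EBP-ATF response element, TGATGNAAN on either strand, lay in 7 of the 16 matched cytosolic or shared genes (43.8%) and in 1 of the 14 mitochondrial genes (7.14%), against 4.45% of the 27305 genes in the promoter table and 2.56% of the 9219 of them that were tested here. In 6 of the 7 genes the match began within 40 bases of a start, and in AARS it began farther upstream, at position -188. The windows below run from up to 40 bases before the match to up to 15 bases after it on the strand of the gene, with the match in capitals, and stand in the order of the log2 fold change after MGH-CP1, from IARS, which fell most, to CARS, which did not pass the test.
IARS (chr9:92293688-92293751, minus strand): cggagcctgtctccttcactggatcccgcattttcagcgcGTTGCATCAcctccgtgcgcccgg
MARS (chr12:57488023-57488086, plus strand): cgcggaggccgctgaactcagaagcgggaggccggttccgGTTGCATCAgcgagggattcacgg
GARS (chr7:30594804-30594867, plus strand): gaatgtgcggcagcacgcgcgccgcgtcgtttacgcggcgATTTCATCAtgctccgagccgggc
TARS (chr5:33440926-33440989, plus strand): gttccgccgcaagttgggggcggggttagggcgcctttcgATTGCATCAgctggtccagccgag
NARS (chr18:57621807-57621862, minus strand): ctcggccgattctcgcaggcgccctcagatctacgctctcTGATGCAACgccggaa
AARS (chr16:70289671-70289734, minus strand): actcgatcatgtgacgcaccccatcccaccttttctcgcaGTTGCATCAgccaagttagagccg
CARS (chr11:3057403-3057466, minus strand): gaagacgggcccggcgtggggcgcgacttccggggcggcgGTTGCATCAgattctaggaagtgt

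Of these genes, 5 (AARS, CARS, IARS, MARS and NARS) hold the same word, TGATGCAAC read on the strand that carries the motif. GARS, CARS and TARS have more than a single listed start, and the match was found by one of them. Of the 7 genes with a match, 6 were called lower and CARS was not called. Of the 9 matched cytosolic or shared genes without it, 7 were called lower, QARS was called higher and RARS was not called. The background over all genes tested was 23.8% called lower and 27.1% called higher, so most genes were called lower with and without the match. The median log2 fold change was -0.43 with the match and -0.22 without it, a difference that was not tested, and a match is a description of letters and not of binding.

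The other motifs were found in fewer of the cytosolic genes. The E-box, CACGTG, was found in 1 of 16 cytosolic genes (6.25%, IARS) and in 3 of 14 mitochondrial genes (21.4%, CARS2, EARS2 and MARS2), against 12.7% of the tested genes with a window and 8.77% of all genes in the table. The TEAD core, CATTCC, was found in CARS (6.25%) and in FARS2, WARS2 and YARS2 (21.4%), against 14.98% of the tested genes and 16.7% of all. The NRF1 core, which reads GCGC and TGCGC with any base between them, was found in FARSB, SARS and TARS (18.8%) and in IARS2, MARS2 and PARS2 (21.4%), against 14.0% of the tested genes and 6.98% of all. All were searched on both strands, and no match of one motif lay over that of another. The stretch from MARS2, the mitochondrial gene with the largest fall, is shown because it holds an NRF1 core (in capitals) and, a few bases on, an E-box, both close to its start.
MARS2 (chr2:197705302-197705366, plus strand): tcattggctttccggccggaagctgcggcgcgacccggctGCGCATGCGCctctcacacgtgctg

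**Figure D1:**
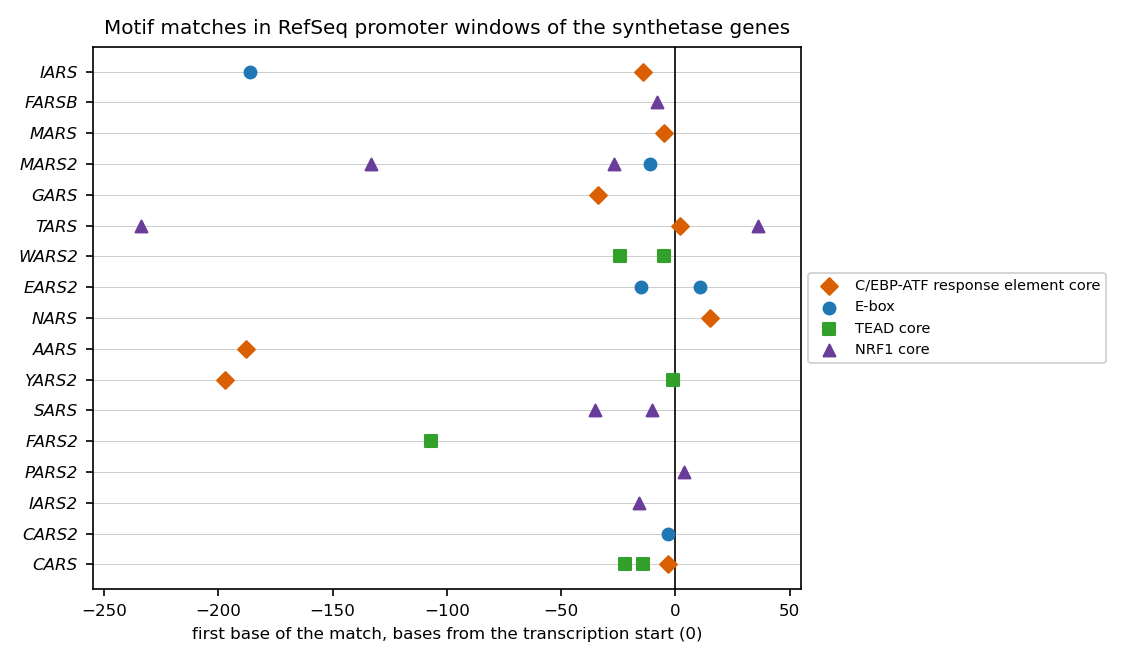
First base of each motif match in the RefSeq promoter windows, in bases from the transcription start (x axis), for the 17 synthetase genes with a match, ordered from the largest fall (top) to the largest log2 fold change of the group (bottom). Genes with several listed starts can show the same match more than once, and C/EBP-ATF matches lie within 40 bases of the start in 6 of the 7 cytosolic genes.

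In the vehicle control libraries the cytosolic or shared genes had a mean level from 17.3 FPKM (CARS) to 147 FPKM (GARS), with a median of 63.1. The mitochondrial genes ranged from 4.52 FPKM (PARS2) to 83.1 FPKM (IARS2), with a median of 8.63, and after IARS2 the next was at 13.8. FPKM is scaled to a fixed listed length for each gene, so comparisons of level between genes are approximate. For each of the 12 amino acids with a cytosolic and a mitochondrial gene of the same name among those tested, the cytosolic gene had the higher level in vehicle control, by a factor from 1.19 (IARS over IARS2) to 13.6 (NARS over NARS2). The summed FPKM of the 20 cytosolic or shared genes came to 1347 and 1336 with vehicle control, and to 1065 and 1088 with MGH-CP1. For the 16 mitochondrial genes the sums were 204 and 207, and 189.6 and 193, so that the groups did not overlap in either set. IARS2, which did not pass the test, made up a large part of the mitochondrial sums, with 84.7 and 81.6 FPKM, and 76.1 and 77.4 FPKM. By gene, both MGH-CP1 libraries lay below both vehicle control libraries for 17 of the 20 cytosolic or shared and 7 of the 15 mitochondrial genes, against 37.4% of all genes tested, and above them for 1 and 3 genes, against 39.8%. Libraries of the groups did not overlap, in either direction, for 77.2% of all genes tested.

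**Figure D2:**
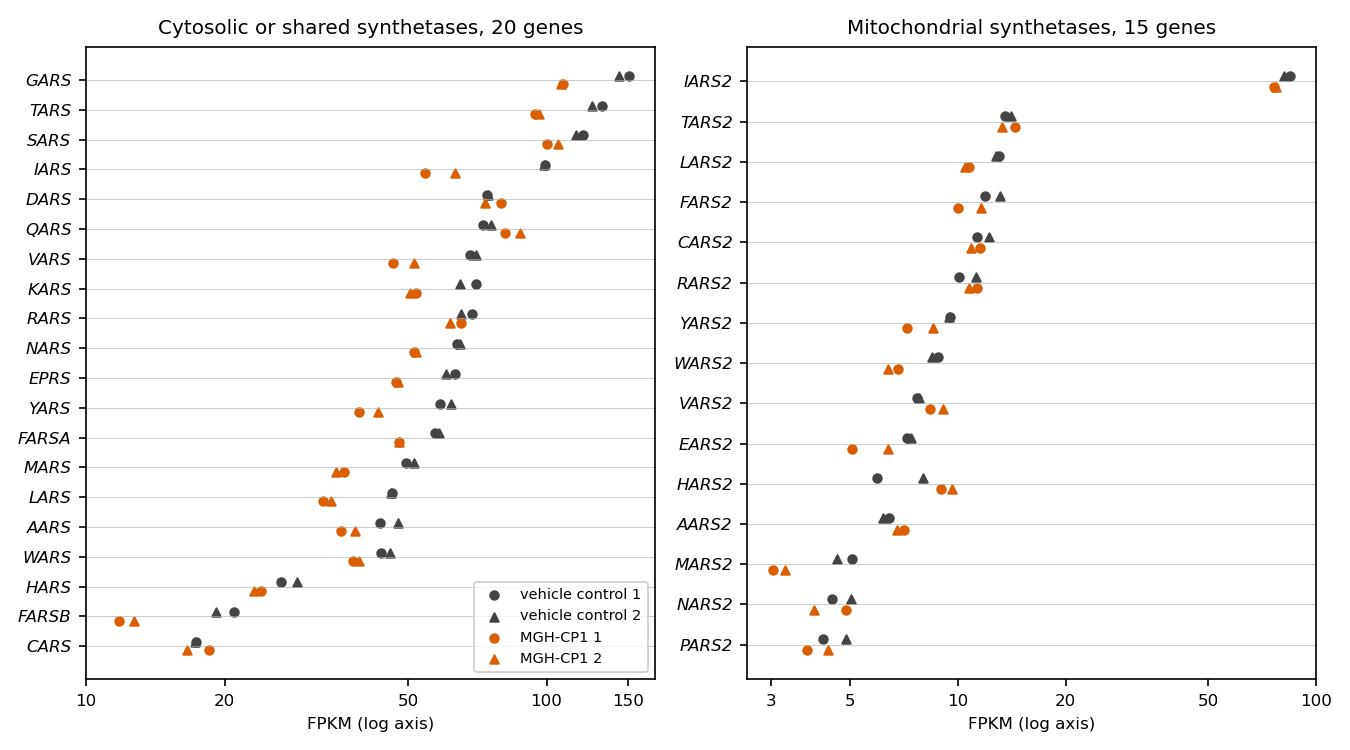
FPKM in each of the 4 libraries (log axis) for the 20 cytosolic or shared genes (left) and the 15 mitochondrial genes tested (right), ordered by the vehicle control mean; circles are replicate 1 and triangles replicate 2, grey vehicle control and orange MGH-CP1. In 17 of the 20 genes on the left both orange points lie below both grey points, against 7 of the 15 on the right.

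The largest fall was that of IARS (ENSG00000196305), the isoleucine enzyme, which lies on the minus strand at chr9:94972489-95056038 in the hg19 coordinates of the deposited table. It had 99.0 FPKM in each vehicle control library, and 54.3 and 63.4 FPKM after MGH-CP1. Both MGH-CP1 libraries were far below vehicle control (log2 fold change on log2(FPKM + 1) -0.74, standard error 0.07, limma adjusted p = 0.000119). In bulk RNA such as this, less RNA per cell cannot be told apart from fewer cells that carry it. FARSB, the beta subunit of the phenylalanine enzyme, had 21.0 and 19.1 FPKM in vehicle control and 11.8 and 12.7 FPKM after MGH-CP1 (log2 fold change -0.67, standard error 0.07, adjusted p = 0.000183). Its partner in the tetramer, the alpha subunit FARSA, had 57.2 and 58.3 FPKM against 47.9 and 47.8 FPKM, a smaller fall (log2 fold change -0.27, standard error 0.05, adjusted p = 0.00220). The subunits of this enzyme thus both fell, in libraries that did not overlap, and whether the sizes differ was not tested.

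YARS, the tyrosine enzyme, had 58.6 and 62.0 FPKM in vehicle control and 39.2 and 43.2 FPKM after MGH-CP1 (log2 fold change -0.54, standard error 0.06, adjusted p = 0.000258). VARS, the valine enzyme, which travels with the elongation factor complex that recharges EEF1A, had 68.3 and 70.2 FPKM against 46.4 and 51.5 FPKM (log2 fold change -0.49, standard error 0.06, adjusted p = 0.000358). For both genes the highest MGH-CP1 value lay well under the lowest vehicle control value. GARS and TARS, the glycine and threonine enzymes and the most abundant of the group, fell by a similar size. GARS, a single gene for the cytosolic and the mitochondrial enzyme, had 151 and 143 FPKM in vehicle control and 108 and 107 FPKM after MGH-CP1 (log2 fold change -0.44, standard error 0.05, adjusted p = 0.000210). TARS had 132 and 126 FPKM against 94.4 and 96.4 FPKM (log2 fold change -0.43, standard error 0.05, adjusted p = 0.000240). In each of these genes every MGH-CP1 library was below every vehicle control library.

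The members of the multisynthetase complex did not move as a block. Of the 8, 5 were called lower (against 23.8% of all genes tested). QARS was called higher (against 27.1%), and RARS and DARS did not pass the test. Besides IARS, the genes called lower were MARS, LARS, KARS and EPRS. MARS, the methionine enzyme, had 49.5 and 51.5 FPKM in vehicle control and 36.3 and 34.9 FPKM after MGH-CP1 (log2 fold change -0.49, standard error 0.05, adjusted p = 0.000184). LARS, the leucine enzyme and a known leucine sensor for mTORC1, had 46.2 and 45.9 FPKM against 32.7 and 34.1 FPKM (log2 fold change -0.45, standard error 0.05, adjusted p = 0.000237). Neither gene showed any overlap between the groups. KARS, the lysine enzyme of cytosol and mitochondria, had 70.3 and 64.8 FPKM and then 52.2 and 50.4 FPKM (log2 fold change -0.39, standard error 0.06, adjusted p = 0.000801). EPRS, which joins the glutamate and the proline enzyme in a single chain, had 63.3 and 60.6 FPKM and then 47.2 and 47.6 FPKM (log2 fold change -0.38, standard error 0.05, adjusted p = 0.000478). Both were lower in each MGH-CP1 library than in either vehicle control library.

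QARS, the glutamine enzyme, went the other way. It had 72.7 and 75.7 FPKM in vehicle control and 81.1 and 87.7 FPKM after MGH-CP1, with no overlap (log2 fold change 0.18, standard error 0.05, adjusted p = 0.0241). The call was lost without vehicle control replicate 1 or MGH-CP1 replicate 2, while the log2 fold change stayed between 0.13 and 0.24 in all settings tried. RARS, the arginine enzyme, had 68.8 and 65.1 FPKM against 65.0 and 61.8 FPKM (log2 fold change -0.08, standard error 0.05, adjusted p = 0.253). DARS, the aspartate enzyme, had 74.4 and 74.5 FPKM against 79.8 and 73.5 FPKM (log2 fold change 0.04, standard error 0.05, adjusted p = 0.557). The RARS libraries lay side by side with little distance between the groups, and those of DARS overlapped. The median log2 fold change was -0.38 over the complex members and -0.30 over the 12 cytosolic genes outside it, against 0.01 over all genes tested. Of those 12 genes 11 were called lower, against 23.8% of all genes tested.

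Of the remaining cytosolic genes, NARS, AARS, HARS, WARS and SARS fell by smaller amounts, and CARS did not pass the test. NARS, the asparagine enzyme, had 63.9 and 64.7 FPKM in vehicle control and 51.4 and 52.2 FPKM after MGH-CP1 (log2 fold change -0.31, standard error 0.05, adjusted p = 0.00103). AARS, the alanine enzyme, had 43.4 and 47.6 FPKM against 35.8 and 38.4 FPKM (log2 fold change -0.29, standard error 0.06, adjusted p = 0.00626). The groups did not overlap in either gene, and the call of AARS was lost without the filter on low values. HARS, the histidine enzyme, had 26.5 and 28.7 FPKM against 24.0 and 23.2 FPKM (log2 fold change -0.22, adjusted p = 0.0161). WARS, the tryptophan enzyme and an interferon-inducible gene, had 43.7 and 45.7 FPKM against 38.01 and 39.1 FPKM (log2 fold change -0.21, adjusted p = 0.0104). SARS, the serine enzyme, had 120.1 and 116.0 FPKM against 100.3 and 105.7 FPKM (log2 fold change -0.20, adjusted p = 0.0117). These 3 are the smallest falls that were called among the cytosolic genes, and leaving out a library ended each of the calls: vehicle control replicate 2 or MGH-CP1 replicate 2 for HARS, and MGH-CP1 replicate 1 for WARS and SARS. CARS, the cysteine enzyme, had 17.3 FPKM in each vehicle control library and 18.5 and 16.6 FPKM after MGH-CP1, so that the vehicle control values lay between the MGH-CP1 values (log2 fold change 0.02, standard error 0.07, adjusted p = 0.850).

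**Figure D3:**
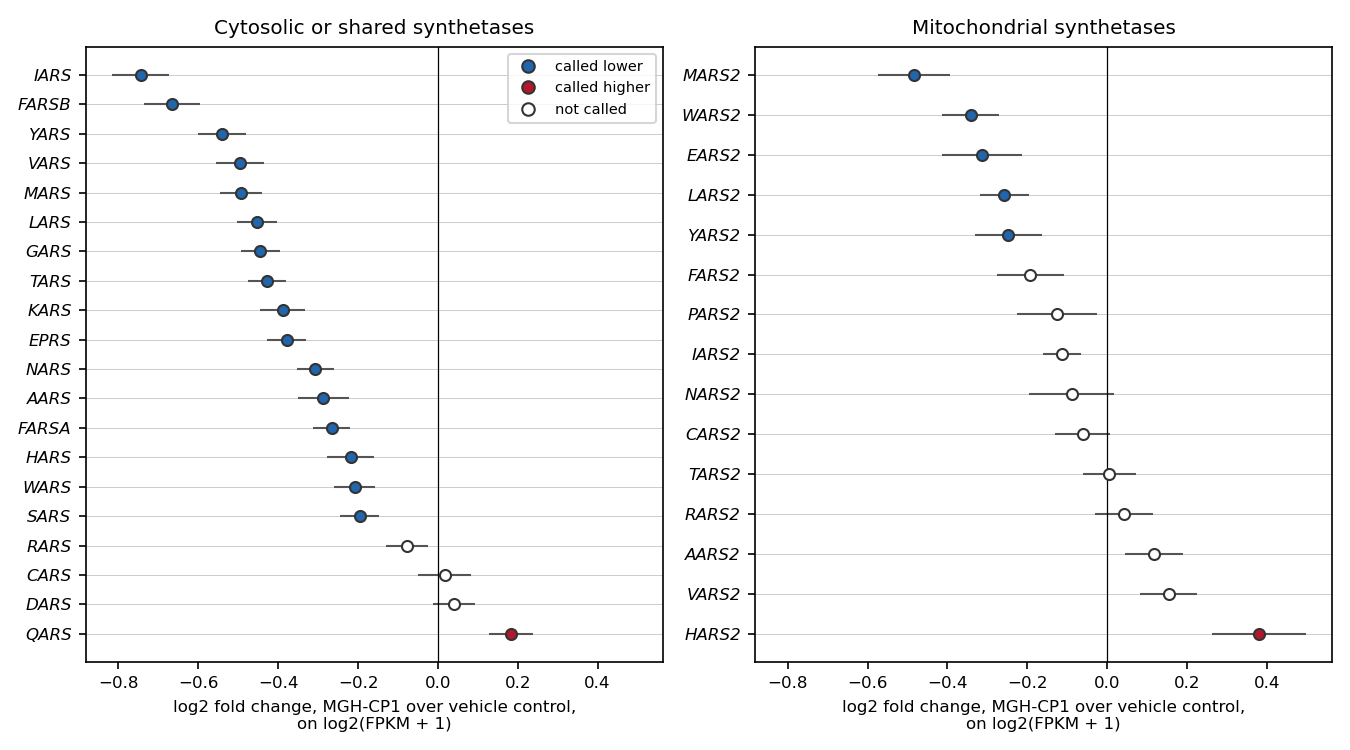
Log2 fold change on log2(FPKM + 1), MGH-CP1 over vehicle control, with the standard error from limma as the bar, for the cytosolic or shared genes (left) and the mitochondrial genes tested (right); blue and red points passed an adjusted p of 0.05, white points did not. On the left 16 points are blue and QARS is red, on the right 5 are blue and HARS2 is red.

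By structural class the cytosolic genes were alike in direction. Of the 9 class I genes 6 were called lower and 1 higher (median log2 fold change -0.45), and of the 10 class II genes 9 were called lower (median -0.30). EPRS has a domain of each class and was left out of this count. Of the 12 genes listed as known ATF4 targets (AARS, CARS, EPRS, GARS, IARS, LARS, MARS, NARS, SARS, TARS, WARS and YARS), 11 were called lower, with a median of -0.40, which ranged from -0.43 to -0.36 when each MGH-CP1 library was set against each vehicle control library. Among the 8 cytosolic genes outside that list, 5 were called lower and 1 higher, with a median of -0.24. The difference between these medians was not tested. The background for each count in this paragraph, over all genes tested, was 23.8% called lower and 27.1% called higher.

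Of the mitochondrial genes, MARS2, the methionine enzyme, fell most, from 5.06 and 4.60 FPKM to 3.05 and 3.29 FPKM (log2 fold change -0.48, standard error 0.09, adjusted p = 0.00287). WARS2, for tryptophan, had 8.78 and 8.48 FPKM in vehicle control and 6.80 and 6.40 FPKM after MGH-CP1 (log2 fold change -0.34, standard error 0.07, adjusted p = 0.00493). LARS2, for leucine, had 13.0 and 12.8 FPKM against 10.8 and 10.5 FPKM (log2 fold change -0.26, standard error 0.06, adjusted p = 0.00909). These 3 calls held in every setting that shared variance between genes and tested the gene. EARS2, which charges glutamate, had 7.21 and 7.38 FPKM against 5.06 and 6.36 FPKM (log2 fold change -0.31, standard error 0.10, adjusted p = 0.0312). YARS2, for tyrosine, had 9.50 and 9.46 FPKM against 7.20 and 8.50 FPKM (log2 fold change -0.25, standard error 0.08, adjusted p = 0.0392). In both, MGH-CP1 replicate 1 was the lowest library, and the calls ended without it and without either vehicle control library. That of EARS2 also ended when the libraries were thinned to equal depth. YARS2 overlaps DNM1L on the opposite strand over 18063 bases, and DNM1L had 25.0 FPKM in vehicle control and 20.2 FPKM after MGH-CP1.

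HARS2, for histidine, was the mitochondrial gene called higher, with 5.93 and 8.005 FPKM in vehicle control and 8.97 and 9.60 FPKM after MGH-CP1 (log2 fold change 0.38, standard error 0.12, adjusted p = 0.0273). The vehicle control libraries differed from each other more than the nearest ones of the 2 groups did, and the call was lost without vehicle control replicate 1 and without either MGH-CP1 library. HARS2 and HARS lie head to head on opposite strands and overlap by 599 bases in the deposited table, and ZMAT2, on the same strand as HARS2, overlaps it by 625 bases with 41.8 FPKM in vehicle control and 43.3 FPKM after MGH-CP1. Whether the counting used the strand is not given in the sources used here, so reads of HARS2, HARS and ZMAT2 in those bases cannot be told apart. In all, 11 of the 35 genes tested overlap another gene of at least 1 FPKM in either group.

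The other mitochondrial genes did not pass the test. IARS2, for isoleucine, was lower in both MGH-CP1 libraries, at 76.1 and 77.4 FPKM against 84.7 and 81.6 FPKM (log2 fold change -0.11, adjusted p = 0.0769). FARS2, for phenylalanine, likewise had 10.0 and 11.6 FPKM against 11.9 and 13.1 FPKM (log2 fold change -0.19, adjusted p = 0.0901). The values of these 2 genes did not overlap between groups, and neither passed the threshold. AARS2, for alanine, had 6.40 and 6.17 FPKM in vehicle control and 7.06 and 6.75 FPKM after MGH-CP1 (log2 fold change 0.12, adjusted p = 0.213). VARS2, for valine, had 7.68 and 7.80 FPKM against 8.38 and 9.09 FPKM (log2 fold change 0.15, adjusted p = 0.107). Both were higher in each MGH-CP1 library without passing the threshold. VARS2 shares 5865 bases with GTF2H4 on the same strand, which is listed at no more than 0.0328 FPKM.

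The libraries of the last 5 overlapped between the groups. PARS2, for proline, had 4.18 and 4.86 FPKM in vehicle control and 3.79 and 4.34 FPKM after MGH-CP1 (log2 fold change -0.12, adjusted p = 0.330). NARS2, for asparagine, had 4.46 and 5.03 FPKM against 4.87 and 3.95 FPKM (log2 fold change -0.09, adjusted p = 0.513). Each rests on few reads, with 160 to 291 fragments per library for PARS2 and 175 to 323 for NARS2. CARS2, for cysteine, had 11.3 and 12.2 FPKM against 11.6 and 10.9 FPKM (log2 fold change -0.06, adjusted p = 0.485). TARS2, for threonine, had 13.5 and 14.0 FPKM against 14.4 and 13.2 FPKM (log2 fold change 0.00, adjusted p = 0.955). RARS2, for arginine, had 10.1 and 11.2 FPKM against 11.3 and 10.7 FPKM (log2 fold change 0.04, adjusted p = 0.650), so none of the 3 showed a gap between the groups. SARS2, for serine, is listed as 2 gene models that cover each other on chromosome 19 and was not tested: ENSG00000104835 held 1 to 13 fragments per library and ENSG00000269547 is listed at 0 in all.

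Set side by side, the cytosolic gene had the lower log2 fold change in 10 of the 12 pairs with the same name. In 9 of these the difference lay below 0 in all 4 library pairings between the groups, which share libraries and are not independent. The same count was not made for other pairs of genes. Among single genes tested, 77.2% did not overlap between the groups, in either direction. The widest distances were those of VARS and VARS2, at -0.49 and 0.15, of IARS and IARS2, at -0.74 and -0.11, and of HARS and HARS2, at -0.22 and 0.38. MARS and MARS2 had near-equal values on this scale, at -0.49 and -0.48, and WARS2 fell by more than WARS. The pseudocount shrinks the change of MARS2, a gene of low level. Its mean FPKM changed by -34.4%, against -29.5% for MARS, so the order of this pair depends on the scale. The median log2 fold change was -0.34 over the cytosolic or shared genes (from -0.36 to -0.32 over the 4 library pairs) and -0.11 over the mitochondrial genes (from -0.14 to -0.05). The difference between the compartments was not tested as such. The mitochondrial genes had fewer fragments, and standard errors of up to 0.12 on the log2 scale against up to 0.07 for the cytosolic genes, so a small change could be called less easily there.

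**Figure D4:**
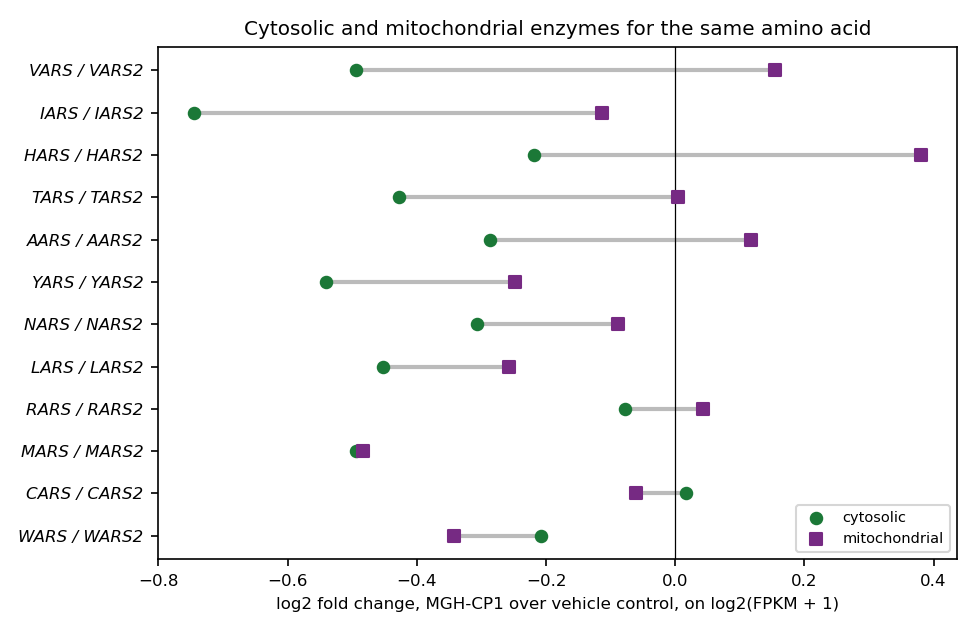
Log2 fold change on log2(FPKM + 1), MGH-CP1 over vehicle control, of the cytosolic (circle) and the mitochondrial (square) gene for the same amino acid, in 12 pairs of the same name, ordered by the difference. The circle lies to the left of the square in 10 pairs, most in VARS and VARS2, and to the right in CARS and WARS.

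Proteins that work with the synthetases showed both directions. AIMP2, a scaffold of the multisynthetase complex, had 25.3 and 24.7 FPKM in vehicle control and 14.8 and 16.7 FPKM after MGH-CP1 (log2 fold change -0.64, standard error 0.07, adjusted p = 0.000191). AIMP1 fell by 0.24 on the log2 scale (adjusted p = 0.0230), and EEF1E1 did not pass the test (log2 fold change -0.08, adjusted p = 0.695). XPOT, which exports tRNA from the nucleus, had 40.9 and 38.6 FPKM against 25.6 and 27.0 FPKM (log2 fold change -0.58, standard error 0.06, adjusted p = 0.000133). Among the EEF1A proteins, which bring charged tRNA to the ribosome, and the subunits of the complex that recharges them, EEF1B2 fell by 0.29 on the log2 scale (adjusted p = 0.00295) and EEF1A2 rose by 0.27 (adjusted p = 0.00627), while EEF1A1 (log2 fold change 0.06, adjusted p = 0.387, but -0.59 under quantile normalization) and EEF1D (0.11, adjusted p = 0.134) did not pass the test and EEF1G is listed at 0. On the mitochondrial side 2 of 6 genes tested were called lower and none higher. These were QRSL1, a subunit of the enzyme that converts Glu-tRNA to Gln-tRNA after EARS2 (log2 fold change -0.33, adjusted p = 0.0187), and the elongation factor TUFM (-0.20, adjusted p = 0.00833). Of the related synthetases and editing factors 1 of 4 tested was called lower, the deacylase DTD1 (-0.32, adjusted p = 0.0107). Over all genes tested 23.8% were called lower and 27.1% higher. These lists are too short to set either count apart from that background.

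Most of the listed genes of amino acid supply were lower after MGH-CP1. All 9 amino acid synthesis genes that were tested were called lower, against 23.8% of all genes tested. Their median log2 fold change was -0.44. PSAT1, of serine synthesis, fell most, from 71.5 and 73.1 FPKM to 32.7 and 38.1 FPKM (log2 fold change -1.01, standard error 0.07, adjusted p = 3.83e-05). ASNS, which makes asparagine, had 40.8 and 44.6 FPKM in vehicle control and 24.7 and 28.7 FPKM after MGH-CP1 (log2 fold change -0.66, standard error 0.08, adjusted p = 0.000320). MTHFD2, of mitochondrial folate metabolism, and PHGDH, the first enzyme of serine synthesis, fell by 0.64 and 0.51 on the log2 scale (adjusted p = 0.000362 and 0.00601). PHGDH had 2.11 and 2.21 FPKM in vehicle control, a level at which the pseudocount shrinks the change. Its mean FPKM changed by -43.5%, against -39.8% for MTHFD2. Of the 9 amino acid transporter genes 7 were called lower and 2 higher, against 23.8% and 27.1% of all genes tested. Their median was -0.46. SLC7A5, the leucine transporter, had 183 and 189 FPKM against 75.5 and 90.3 FPKM (log2 fold change -1.16, standard error 0.08, adjusted p = 3.26e-05), and SLC7A1, for cationic amino acids, and SLC1A4, for alanine and serine, fell by 0.84 and 0.69 (adjusted p = 0.000100 and 0.000532). In mean FPKM the change was -44.9% for SLC7A1 and -46.0% for SLC1A4, the gene of lower level. SLC1A5, a glutamine transporter, had 104 and 115 FPKM against 67.8 and 81.2 FPKM (log2 fold change -0.55, standard error 0.09, adjusted p = 0.00114). SLC38A2, which is itself induced by amino acid shortage, rose, from 84.8 and 80.0 FPKM to 125 and 117 FPKM (log2 fold change 0.55, standard error 0.06, adjusted p = 0.000149), and SLC6A9, a glycine transporter, rose by 0.34 (adjusted p = 0.00397).

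The regulators of the integrated stress response were divided. ATF4 itself had 87.7 and 96.3 FPKM in vehicle control and 89.9 and 96.1 FPKM after MGH-CP1, with overlapping libraries (log2 fold change 0.02, standard error 0.06, adjusted p = 0.841), and its mRNA level does not report its translation. TRIB3, an ATF4 target that feeds back on it, had 16.9 and 17.8 FPKM against 16.3 and 16.9 FPKM (log2 fold change -0.06, adjusted p = 0.446). Of the 18 regulators 6 were called lower and 3 higher, with a median of -0.06. All genes tested were divided too, with 23.8% called lower, 27.1% called higher and a median of 0.01. The partner of ATF4 on DNA, CEBPG, fell by 0.60 on the log2 scale (adjusted p = 0.000256) and EIF2S1, the alpha subunit of eIF2, by 0.40 (adjusted p = 0.000380). In contrast DDIT4 rose by 0.77 (adjusted p = 8.05e-05) and CEBPB by 0.44 (adjusted p = 0.000888). DDIT3, the transcription factor CHOP, had 2.90 and 3.64 FPKM against 4.49 and 4.50 FPKM (log2 fold change 0.37, adjusted p = 0.0194). It overlaps MARS by 982 bases on the opposite strand, so their reads in those bases cannot be told apart without strand.

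**Figure D5:**
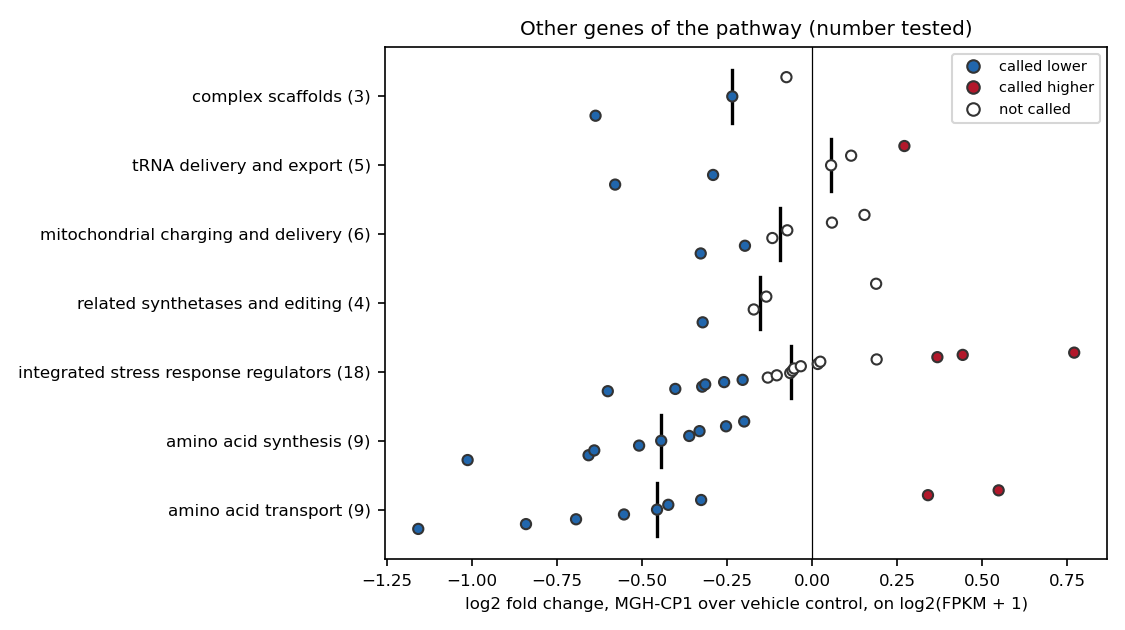
Log2 fold change on log2(FPKM + 1), MGH-CP1 over vehicle control, of the genes tested in 7 lists around the synthetases (each point a gene, the black bar the median of its list); blue and red passed an adjusted p of 0.05. All 9 points for amino acid synthesis are blue, while the regulators of the integrated stress response lie on both sides of 0.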

How the data were processed

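RNA of MDA-MB-231 cells was sequenced from 4 libraries, made by Novogene and grouped by their labels. The authors deposited FPKM per gene with symbol, gene length and coordinates. The submitters' processing notes name CASAVA 1.8, STAR and hg19, and the counting tool and annotation release are not given in the sources used here. In each library, FPKM times length came out as whole fragments for 100% of values (tolerance 0.01), and fragment numbers were recovered so. Depth was 17577930 to 25508824 fragments. Genes averaging 1 FPKM or more (12080) were compared on log2(FPKM + 1) by limma 3.58.1 under R 4.3.3 (eBayes with trend, two-sided, 5.97 prior degrees of freedom). P-values were adjusted by Benjamini-Hochberg over all genes tested, with a threshold of 0.05. The pseudocount shrinks changes of low genes. An exact permutation test of 2 libraries against 2 cannot go below p = 0.333. The script was tested on simulated data. Members and lists were chosen with earlier results of these data known, and lists were written from general knowledge. Every member is named, with values per library for those called, those not called and those nearest 0. From other lists up to 4 called genes of largest change are named, with ATF4, ASNS, TRIB3 and DDIT3. SLC38A2 and SLC6A9, the transporters called higher, and EEF1A1, EEF1D, EEF1E1 and EEF1G were added after their values were seen. A listed pathway gene is not reported here and was left out of the counts. Promoter windows are from RefSeq (GRCh38.p14), and their coordinates are not those of the table. Alternatives were another pseudocount (0.1), no filter or a mean of 5 FPKM, other scalings, the replicate block, limma without trend or shared variance, voom on recovered fragments, equal depth, and each library left out.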

Additional observations from a re-analysis of the deposited data

How the results depend on the processing

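Of 16 cytosolic or shared genes called lower, between 14 and 16 were called lower with each library left out, and 12 of the 17 called in either direction were called in every setting that shared variance between genes; for the mitochondrial genes this was 3 of 6. No gene among the 36 that was called changed sign. With any library left out, fewer of all genes tested were called too, in each direction, than with every library kept. Without shared variance limma called 0 cytosolic or shared genes lower (14 at an unadjusted p under 0.05) and 0 higher (0 unadjusted), 0 mitochondrial genes lower (3 unadjusted) and 0 higher (0 unadjusted), and in the pathway lists 0 lower and 0 higher (20 and 7 unadjusted), against 29 and 6. Of all genes it called 9 higher and 4 lower, against 3273 and 2869. Without the filter on low values and with limma without the trend alike, 3 mitochondrial genes were called lower and 0 higher. In both, 0 cytosolic or shared genes were called higher. Without the filter 13 cytosolic or shared genes were called lower, AARS, HARS and SARS being lost, and 19 of the pathway lists. Of all genes it called 1844 of 24878 lower, against 2869 of 12080 with the filter. With limma voom on recovered fragments 2 mitochondrial genes were called higher, and of all genes 3480 higher and 3113 lower. With libraries left out in turn the count of cytosolic or shared genes called higher was 0 to 1, that of mitochondrial genes 0 to 1 higher and 3 to 6 lower, and the mitochondrial median log2 fold change -0.16 to -0.036. Quantile normalization gave medians of -0.31 (cytosolic or shared) and -0.18 (mitochondrial), and library totals without genes of the mitochondrial genome -0.33 for the former. EEF1A1 turned to -0.59 under quantile normalization. The cause was not tested. The replicate number as a block gave 6 mitochondrial genes called lower, FARS2 being added, and 3466 and 3052 calls over all genes; the numbers share no stated origin, the correlation of same-numbered deviations was 0.0777, and this block changed no other call among the 36 genes. Precision is limited by 2 libraries a group and, for most mitochondrial genes, by low fragment numbers.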
